A study of Mus musculus with 6 samples.

Results

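The 10 genes described here encode the machinery that fuses and divides mitochondria: Mfn1, Mfn2 and Opa1 for fusion, Oma1 and Yme1l1 for the cleavage of Opa1, and Dnm1l, Mff, Fis1, Mief1 and Mief2 for fission. They were taken by name, through their NCBI gene IDs, from a deposited table of 27179 genes, and all 10 were found and passed the filter on low values. The table holds 6 RNA-seq libraries from LT-HSC (long-term haematopoietic stem cells), which can renew all blood lineages, of C57BL/6 mice. The labels give the sorted phenotype as negative for lineage markers and CD48 and positive for Sca-1, c-Kit and CD150. The question put to the 10 genes is whether their transcript levels differ in LT-HSC of Prdm16 conditional knockout mice. Prdm16 encodes a zinc-finger transcriptional regulator.

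Animals of both groups carried conditional (Cko) Prdm16 alleles on both chromosomes. The control group (genotype Cko/Cko; +/+) had no Cre, and the knockout group (Cko/Cko; Tg/+) carried the Mx1-Cre transgene, in which Cre is driven by the interferon-responsive Mx1 promoter. Control and knockout animals alike were injected 5 times with pIpC, an RNA mimic of viral infection that induces interferon, and marrow was taken 5 weeks later from adults of 8 to 12 weeks. Because the controls had no Cre, effects of Cre itself and of the deletion cannot be told apart. Marrow from 5 mice per genotype was pooled and sorted in 3 technical replicates. Each group of 3 libraries therefore comes from a single pool, and the p-values measure the spread between portions of a pool rather than between animals.

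Mitochondria form a network that is remodelled by large GTPases. The mitofusins Mfn1 and Mfn2 join outer membranes, and Opa1 joins inner membranes and shapes the cristae. The proteases Oma1 and Yme1l1 cut Opa1 from its long to its short form, and cleavage by Oma1 under stress limits inner-membrane fusion. Division is carried out by the cytosolic GTPase encoded by Dnm1l (DRP1), which is recruited to the outer membrane by the adaptors Mff, Mief1 and Mief2, with Fis1 as a further outer-membrane protein linked to fission. Mfn2 also tethers mitochondria to the endoplasmic reticulum and, in blood stem cells, has been reported to restrain calcium-dependent NFAT signalling and to be a target of Prdm16.

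The promoters of 4 of the genes are shown because they cover both mitofusins, the inner-membrane fusion gene and the fission GTPase. The promoter table gives the 250 bases upstream of each listed RefSeq start site (GRCm38.p6, 5′ to 3′ on the strand of the gene). Some listed sites lie inside the RefSeq gene span, so only the bases outside that span are printed, 250 for Mfn2, 211 for Mfn1, 197 for Opa1 and 243 for Dnm1l. Capitals mark matches, on either strand, to any of 8 motifs searched, which are spelled out after the sequences.
Mfn2, chr4:147904910-147905159, minus strand: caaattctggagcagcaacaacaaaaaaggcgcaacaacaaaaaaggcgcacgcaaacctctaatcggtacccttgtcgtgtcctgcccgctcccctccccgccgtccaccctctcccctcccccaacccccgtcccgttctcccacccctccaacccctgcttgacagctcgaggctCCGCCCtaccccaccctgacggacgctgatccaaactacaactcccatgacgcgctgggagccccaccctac
Mfn1, chr3:32529232-32529442, plus strand: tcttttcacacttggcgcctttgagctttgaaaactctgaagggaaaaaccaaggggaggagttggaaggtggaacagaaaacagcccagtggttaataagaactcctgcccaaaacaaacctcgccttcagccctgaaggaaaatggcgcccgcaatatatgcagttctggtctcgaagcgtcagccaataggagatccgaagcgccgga
Opa1, chr16:29579084-29579280, plus strand: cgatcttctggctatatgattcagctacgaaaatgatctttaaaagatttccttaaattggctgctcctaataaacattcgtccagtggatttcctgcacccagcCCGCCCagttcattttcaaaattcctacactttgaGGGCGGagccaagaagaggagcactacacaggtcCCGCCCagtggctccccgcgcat
Dnm1l, chr16:16359039-16359281, minus strand: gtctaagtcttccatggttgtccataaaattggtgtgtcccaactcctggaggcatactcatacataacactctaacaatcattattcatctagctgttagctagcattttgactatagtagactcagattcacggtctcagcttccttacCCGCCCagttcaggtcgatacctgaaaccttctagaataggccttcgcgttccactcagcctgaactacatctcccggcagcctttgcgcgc
The marked motifs are GC boxes (GGGCGG or its complement CCGCCC), 1 each in Mfn2 and Dnm1l and 3 in Opa1, and the printed bases of Mfn1 hold no match. The table lists 15 windows for the 10 genes, of which 4 lie wholly outside the gene span. The counts that follow are over whole windows, and the matches of Mfn1 and that of Opa1 to the NRF1 core reach into the gene span and are not printed. For Mfn2 the table gives further start sites 211 and 248 bases downstream of the outermost listed, and neither of their windows holds any of the 8 motifs.

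Over all 32536 distinct windows of 250 bases, 32.97% hold a GC box. Of the 15 windows of the 10 genes, 13 do, with at least 1 for each gene. The ETS motif CCGGAAGT (complement ACTTCCGG), the form bound by GABPA, is in 2.9% of all windows and was found for Fis1, Mfn1 and Mief1. The NRF1 core GCATGCGC (complement GCGCATGC) is in 2.27% of windows and was found for Opa1. The E-box CACGTG, in 6.04% of windows, was found for Mief2. No match was found for the YY1 motif AAGATGGCG (0.61% of windows) or the cyclic AMP response element TGACGTCA (1.56%). The motifs of the 2 zinc-finger domains of EVI1, the closest relative of PRDM16, were searched as GACAAGATA (0.1% of windows) and GAAGATGAG (0.35%), and neither was found for any of the 10 genes. These are matches of letters only. GC content of the 15 windows ran from 46% to 70.8%, against a median of 52.4% over all windows.

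The 6 libraries held 36747729 to 43743795 reads. The reads were recovered from the deposited log2 values, and levels are given in CPM, recovered reads scaled to the effective library size. Prdm16, the deleted gene, fell from 40.8 ± 9.40 to 10.8 ± 3.37 CPM (SD, n = 3 per group, limma adjusted p = 0.0083, log2 fold change -1.93). The knockout libraries still held 323, 388 and 643 Prdm16 reads, and the fitted level was 0.262 of control. The source of these remaining reads was not tested. The LT-HSC marker list was detected in full, with 12 of 12 genes tested and none called, and its summed level was 2690 to 2870 CPM in control and 2744 to 3028 CPM in knockout. Summed levels of several marker lists of blood lineages differed between the groups. The 12 neutrophil markers summed to 303.7 to 320.6 CPM in control and 1114 to 1304 CPM in knockout (10 of 11 tested genes called higher), and the 10 eosinophil, basophil and mast cell markers to 14.6 to 19.0 and 589.6 to 685.1 CPM (6 of 9 called higher). The 9 B and plasma cell markers summed to 59.1 to 66.1 and 231.9 to 248.1 CPM (1 of 6 called). All 6 had an unadjusted p below 0.05 in limma, where 10.3% of all tested genes did. Every knockout library was above every control library for 5 of the 6 and below for 1. Epx, Ear1, Prss34, Mcpt8 and Ms4a2 of the second list and Igkc, Ms4a1, Pax5 and Ebf1 of the third had 0 reads in all control libraries. The summed erythroid (7 markers), stromal and endothelial (8) and T and NK cell (8) lists were 19.2 to 23.4, 98.1 to 113.1 and 76.2 to 101 CPM in control and 25.8 to 37.1, 100.4 to 136.7 and 94.2 to 119.2 CPM in knockout, with 0, 1 and 0 genes called. Of the 5 tested erythroid genes, 4 had every knockout library above every control library, as did 8.52% of all tested genes. An unadjusted p below 0.05 in limma was found for 4 of the 5. Hba-a1 and Slc4a1 of that list had 0 reads in all control libraries. The part of these differences in the values below was not tested. In such bulk libraries fewer cells of a type and less RNA per cell cannot be told apart.

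None of the 10 genes passed the test. Of 13018 genes tested with limma, 0.699% were called at an adjusted p below 0.05 (53 higher and 38 lower in knockout, the lower genes being 0.292%), and 0 of the 10 genes were among them. At an unadjusted p below 0.05 the count was 1 of 10, Dnm1l, where 10.3% of all tested genes passed. Fitting voom in limma to the recovered reads also called 0, with 1 at an unadjusted p below 0.05. Adjusted p-values of the 10 genes ran from 0.483 to 0.933. Their log2 fold changes, knockout minus control, lay between -0.28 and 0.21, with a median of -0.15 where the median of all tested genes was 0.003. Values were negative for 8 of the 10 and positive for Oma1 and Mief2, and 49.5% of all tested genes were negative. The median absolute log2 fold change was 0.19 for the 10 genes and 0.18 for all tested genes.

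The width of the intervals says how large a difference between the pools these libraries leave possible. Like the p-values, the intervals measure the spread between portions of a pool, so they do not bound a difference between animals. The 95% confidence intervals from limma, not adjusted for the number of genes, ran in all from -0.70 (the lower bound of Mfn1) to 0.88 (the upper bound of Mief2) on the log2 scale. No interval therefore reached a 2-fold change in either direction. Of the 10 intervals 9 included 0, and that of Dnm1l ended at -0.001. Reads per gene and library ran from 361 (Mief2) to 9248 (Mff), and a count of 361 has a counting error of 5.26%, which covers counting alone.

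**Figure D1:**
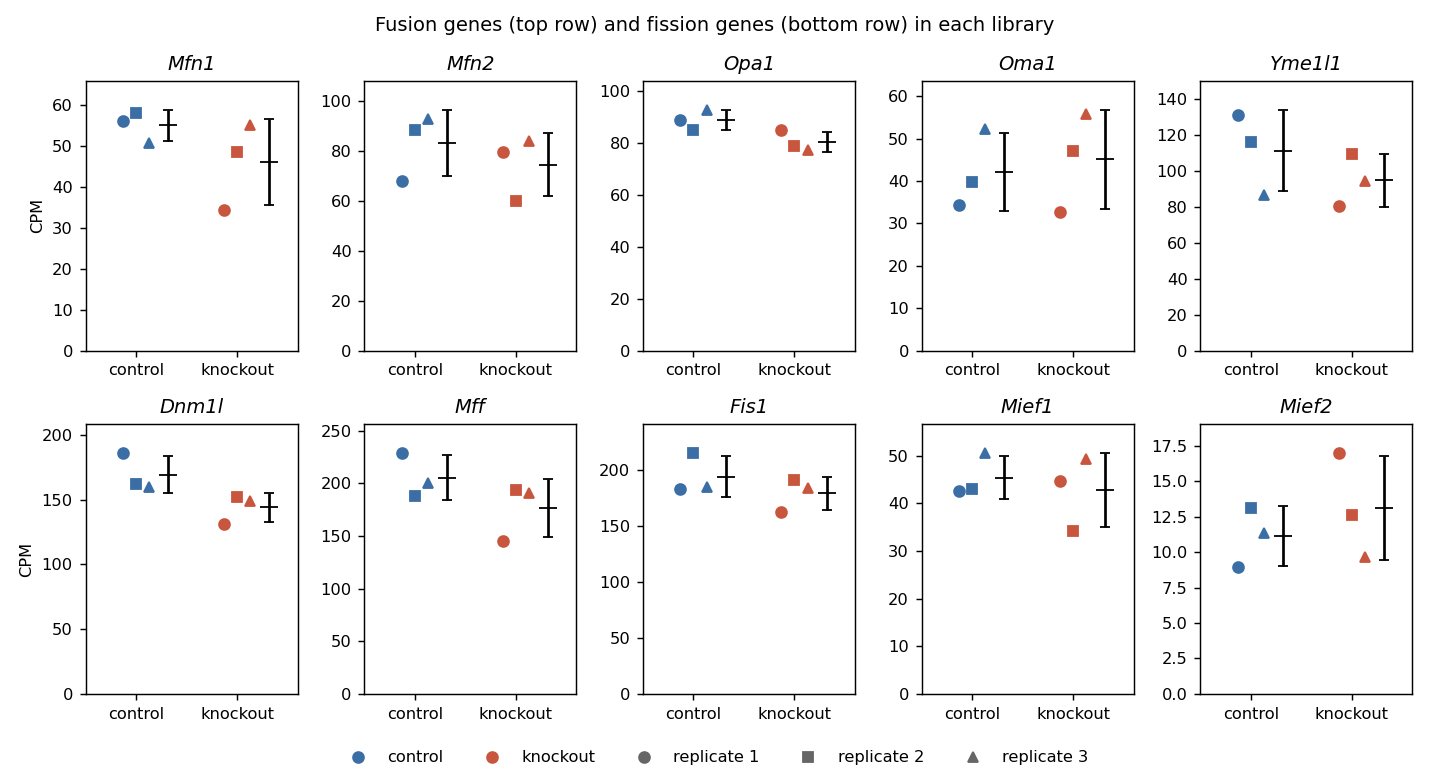
CPM of each of the 10 genes (vertical axes start at 0) in the 3 control (blue) and 3 knockout (red) libraries, with symbols for the replicate number and black bars for the mean ± SD. Only Opa1 and Dnm1l have every knockout library below every control library, an order held by 8.01% of all tested genes. For Opa1 the closest pair of libraries, 84.9 CPM each, differ only beyond the decimals given.

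Neither mitofusin, the outer-membrane fusion GTPases, separated the groups. Mfn2 (gene ID 170731, chromosome 4, 147873586 to 147904909, mm10) stood at 68.2, 88.7 and 93.0 CPM in the control libraries and 79.6, 60.2 and 84.0 CPM in the knockout libraries. The groups overlapped, with control replicate 1 below 2 of the knockout libraries. Means were 83.3 ± 13.3 and 74.6 ± 12.6 CPM (SD, n = 3), and the log2 fold change in limma was -0.16 (SE 0.17, 95% interval -0.54 to 0.22, adjusted p = 0.789). On a linear scale the interval spans 0.688 to 1.16 of the control level, so a fall between the pools to below 0.688 lies outside it. The interval does not cover the spread between animals. Leaving out each library in turn moved the log2 value between -0.30 (without control replicate 1) and -0.01 (without knockout replicate 2).

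Mfn2 lies 6.41 megabases from Prdm16 on chromosome 4. Of the 60 tested genes between them 0 were called, where 0.699% of all tested genes were. With 60 genes, 0 calls cannot be told from that share. The 3 genes whose centred log2 profile over the 6 libraries was nearest to that of Mfn2, among 6508 genes at or above the median level, were Itsn1, Cln3 and Smtn. Their root-mean-square distances were 0.051, 0.060 and 0.061, and the median gene was at 0.27. The 3 names are a description of likeness over 6 libraries.

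Mfn1 (gene ID 67414, chromosome 3, 32529443 to 32579225) stood at 56.0, 58.1 and 50.8 CPM in control and 34.4, 48.5 and 55.1 CPM in knockout. Knockout replicate 1 was the lowest library and knockout replicate 3 lay within the control range. The log2 fold change was -0.28 (SE 0.19, adjusted p = 0.635), the most negative of the 10, and it ran from -0.42 (without knockout replicate 3) to -0.09 (without knockout replicate 1) when libraries were left out in turn. The Mfn1 span overlaps by 639 bases that of Gnb4, which has a mean log2 value of 6.41 here, and no source used here says whether reads were counted by strand. The ratio of Mfn2 to Mfn1 CPM was 1.22, 1.53 and 1.83 in control and 2.31, 1.24 and 1.52 in knockout. The log2 ratio did not separate the groups (difference 0.12, two-sided exact permutation p = 0.7, where 3 against 3 libraries cannot go below 0.1).

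Opa1, the inner-membrane GTPase (gene ID 74143, chromosome 16, 29579281 to 29663127), was the steadiest of the 10. It stood at 89.1, 84.9 and 92.7 CPM in control and 84.9, 79.0 and 77.3 CPM in knockout. Every knockout library was below every control library, the closest pair being level to the decimals given, and 8.01% of all tested genes were ordered in this way. The log2 fold change was -0.15 (SE 0.11, 95% interval -0.40 to 0.11, adjusted p = 0.694). Its residual SD of 0.067 on the log2 scale was at the 3.4 percentile of tested genes.

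The proteases that process Opa1 varied more. Yme1l1 (gene ID 27377, chromosome 2, 23155442 to 23199260), the constitutive inner-membrane protease, stood at 131.1, 116.2 and 86.7 CPM in control and 80.2, 109.5 and 94.6 CPM in knockout. Its log2 fold change was -0.22 (SE 0.17, adjusted p = 0.692), and leaving out libraries in turn gave -0.39 (without control replicate 3) to -0.09 (without control replicate 1), with -0.11 without knockout replicate 1. The Yme1l1 span overlaps that of Mastl by 583 bases, and a stretch of 207 bases of its transcript matches the processed pseudogene Gm14897 at 96.1% identity. Oma1 (gene ID 67013, chromosome 4, 103311875 to 103371869), the stress-activated protease, stood at 34.3, 39.8 and 52.3 CPM in control and 32.6, 47.0 and 55.7 CPM in knockout. The groups interleaved, and the log2 fold change was 0.09 (SE 0.23, adjusted p = 0.933), with -0.083 (without knockout replicate 3) to 0.30 (without knockout replicate 1) when libraries were left out. The ratio of Yme1l1 to Oma1 CPM fell in a range of 1.66 to 3.83 in control and 1.70 to 2.46 in knockout, and its log2 value did not separate the groups (difference -0.31, two-sided exact permutation p = 0.5).

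Among the fission genes Dnm1l, the GTPase that constricts the organelle, came nearest to the threshold. Dnm1l (gene ID 74006, chromosome 16, 16312228 to 16359038) stood at 185.8, 162.2 and 159.8 CPM in control and 131.1, 151.8 and 148.7 CPM in knockout. All 3 knockout libraries were below all 3 control libraries, as for 8.01% of all tested genes. Means were 169.3 ± 14.4 and 143.9 ± 11.1 CPM, a log2 fold change of -0.23 (SE 0.10, 95% interval -0.47 to -0.001). Its unadjusted p of 0.0492 became 0.483 after adjustment over all tested genes, so the difference did not pass the test. With libraries left out in turn the value ran from -0.27 to -0.17. The ratio of Opa1 to Dnm1l CPM, the inner fusion GTPase against the fission GTPase, was 0.479, 0.524 and 0.58 in control and 0.648, 0.52 and 0.52 in knockout (log2 difference 0.09, two-sided exact permutation p = 0.7).

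Mff, the main outer-membrane receptor of DRP1 (gene ID 75734, chromosome 1, 82724890 to 82752390), stood at 228.8, 187.9 and 200.1 CPM in control and 145.1, 193.9 and 191.3 CPM in knockout. Knockout replicates 2 and 3 lay within the control range and knockout replicate 1 was below it. The log2 fold change of -0.23 (SE 0.13, adjusted p = 0.581) was -0.09 without that library and -0.30 without knockout replicate 2. Fis1 (gene ID 66437, chromosome 5, 136953275 to 136966234) stood at 182.4, 214.6 and 184.1 CPM in control and 162.2, 190.7 and 183.8 CPM in knockout. Its log2 fold change was -0.11 (SE 0.10, adjusted p = 0.744), and between -0.16 (without knockout replicate 2) and -0.038 (without control replicate 2) with libraries left out.

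The paired adaptors Mief1 and Mief2, which hold DRP1 at the outer membrane, were the 2 fission genes with the lowest levels. Mief1 (gene ID 239555, chromosome 15, 80233964 to 80253372) stood at 42.7, 43.0 and 50.5 CPM in control and 44.7, 34.3 and 49.4 CPM in knockout. The groups overlapped, and the log2 fold change of -0.10 (adjusted p = 0.892, SE 0.18) turned to 0.053 without knockout replicate 2 and was -0.21 without knockout replicate 3. A stretch of 213 bases of its transcript is annotated in GENCODE as a separate coding gene, AC140267.1, with identical sequence. Mief2 (gene ID 237781, chromosome 11, 60728398 to 60732951) stood at 8.93, 13.1 and 11.3 CPM in control and 17.0, 12.6 and 9.68 CPM in knockout. Its highest value was in knockout replicate 1, the library in which most of the other genes were lowest, and the log2 fold change of 0.21 (SE 0.30, adjusted p = 0.851) was 0.0071 without it and 0.41 without knockout replicate 3. The ratio of Mief1 to Mief2 CPM was 4.78, 3.28 and 4.45 in control and 2.63, 2.72 and 5.10 in knockout (log2 difference -0.31, two-sided exact permutation p = 0.4).

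**Figure D2:**
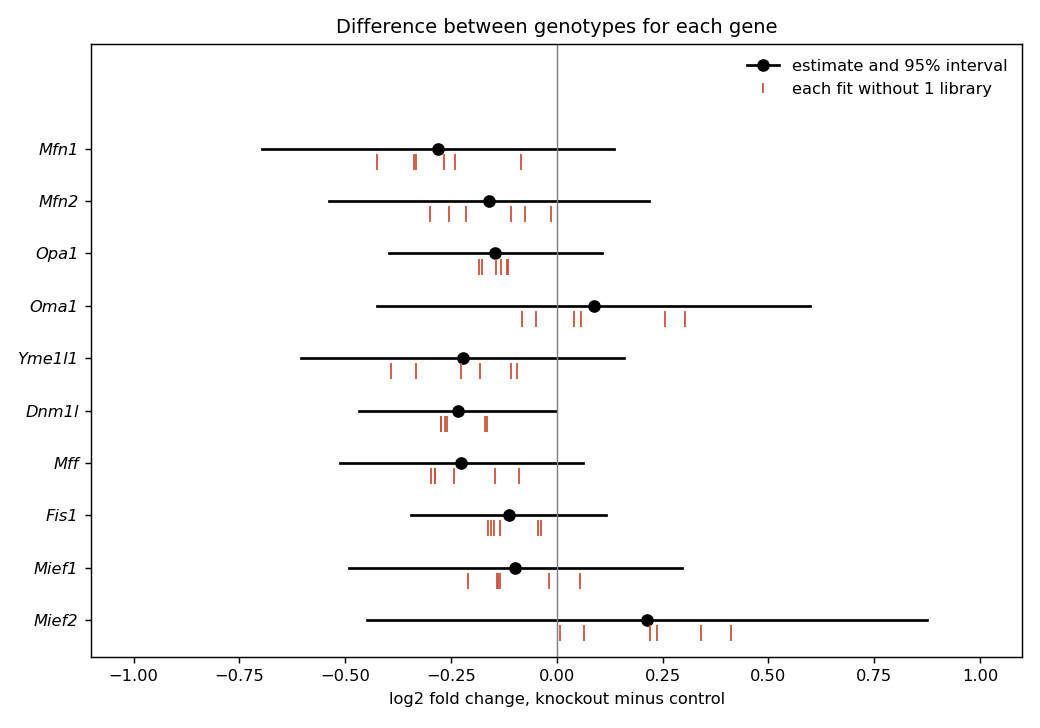
Log2 fold change of each gene, knockout minus control (horizontal axis), with its 95% interval from limma in black and the estimates of the 6 fits that each leave out 1 library as red ticks. All 10 estimates lie between -0.28 and 0.21, and only the ticks of Mief1 and Oma1 fall on both sides of 0.

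The lowest values gathered in a single library. Knockout replicate 1 was the lowest library for 6 of the 10 genes (Mfn1, Oma1, Yme1l1, Dnm1l, Mff and Fis1), and 1 of the 10, Mief2, was highest there. The median of the 10 genes, each centred on its own mean over the libraries, was -0.22 in knockout replicate 1, and between -0.002 and 0.10 in the other 5 libraries. The median of all tested genes, centred in the same way, was 0.007 in that library. In knockout replicate 1 the median was 0.0075 for the 3 fusion genes, of which Mfn1 alone was low, and -0.19 for the 5 fission genes. Without it the median log2 fold change of the 10 genes was -0.10 in place of -0.15, with 8 of 10 still negative, and the values of Mfn1, Fis1, Mff, Yme1l1 and Mief2 moved towards 0 by more than 1.5 times, that of Dnm1l moved towards 0 by less, and those of Mfn2, Opa1, Mief1 and Oma1 moved away from it. In the same library the summed neutrophil markers (1114 CPM) were the lowest of the 3 knockout libraries and the summed LT-HSC markers (3028 CPM) the highest of all 6, and their part in this pattern was not tested.

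**Figure D3:**
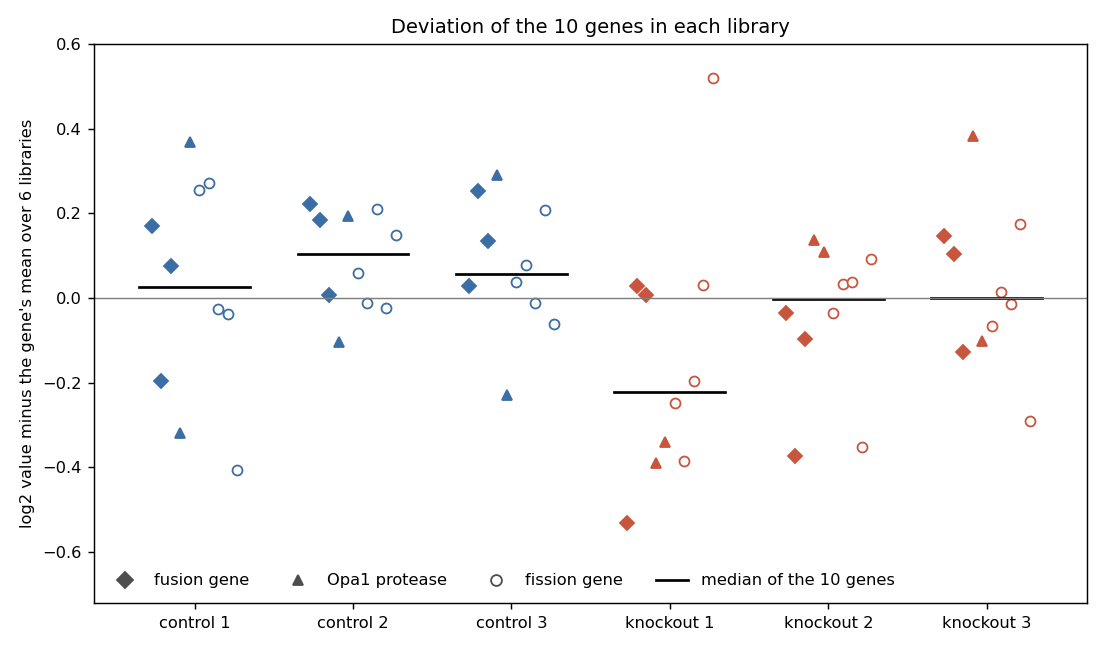
Deviation of each gene from its own mean over the 6 libraries (vertical axis, log2), by library, with filled diamonds for fusion genes, triangles for the Opa1 proteases, open circles for fission genes and black bars for the median of the 10. The bar of knockout replicate 1 is at -0.22, and those of the other 5 libraries lie between -0.002 and 0.10.

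Levels were compared between genes after division by exon length (CPM per kilobase of the union of GENCODE M21 basic exons, mm10). Of the 10 genes, 3 of the fission genes came first, with Fis1 at 175.8 ± 16.4, Mff at 95.7 ± 9.80 and Dnm1l at 37.3 ± 3.17 CPM per kilobase in control (SD, n = 3). Next were Yme1l1 (23.6 ± 4.81), Oma1 (22.0 ± 4.83), Mfn2 (16.4 ± 2.62) and Opa1 (14.2 ± 0.619), and each of these 4 had a range that overlapped that of its neighbour in the order. Mfn1 followed at 11.2 ± 0.771, then Mief1 at 7.96 ± 0.778 and Mief2 at 4.42 ± 0.835 CPM per kilobase, with no overlap between neighbours from Opa1 down. Fis1, Mff and Dnm1l did not overlap their neighbours either. The same order was obtained with the length of the longest basic transcript. The order depends on the division by length, before which Mff averaged 205.6 and Fis1 193.7 CPM in control. Evenness of coverage along the transcripts was not checked. In knockout the order by mean differed only in that Oma1 (23.6) stood above Yme1l1 (20.1), a pair that overlapped in control. On the deposited scale 9 of the 10 genes were at or above the median level of tested genes, and Mief2 was at the 27.4 percentile.

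**Figure D4:**
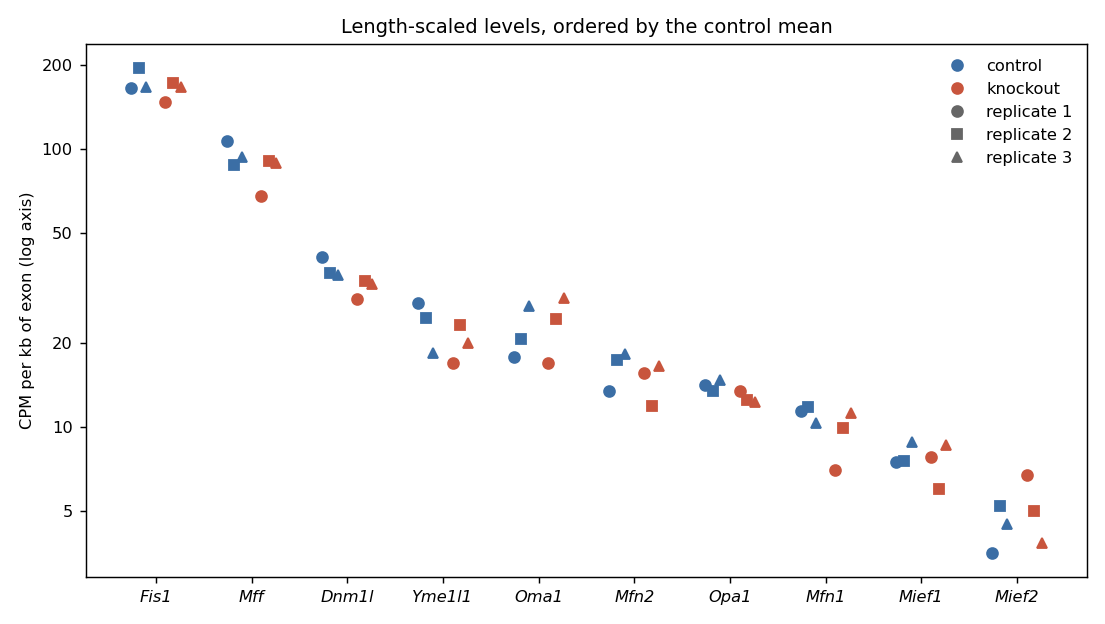
Level of each gene per kilobase of exon (vertical axis, CPM per kilobase, logarithmic) in each control (blue) and knockout (red) library, ordered by the control mean. Fis1 is highest at 175.8 and Mief2 lowest at 4.42 CPM per kilobase in control. The 2 colours overlap for every gene except Opa1 and Dnm1l, both lower in knockout, an order held by 8.01% of all tested genes.

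Other genes that serve the same organelle were followed through 6 lists, 124 genes of which 123 were tested, the exception being Gdap1 with at most 0.527 CPM. None of the 123 was called in limma, against 0.699% of all tested genes. An unadjusted p below 0.05 was found for 11 of the 123, against 10.3% of all tested genes, and voom in limma also called 0. Among 34 tested genes of mitochondrial dynamics and transport, 21 were positive, with a median of 0.04, where 6580 of all 13018 tested genes were positive. Marchf5, an outer-membrane ubiquitin ligase that acts on fission and fusion proteins, averaged 128.2 ± 1.82 CPM in the control libraries and 151.0 ± 11.3 CPM in the knockout libraries (log2 fold change 0.23, adjusted p = 0.444). Rhot2, a GTPase that couples mitochondria to motor proteins, was at 41.3 ± 3.74 and 51.4 ± 2.71 CPM (0.32, adjusted p = 0.489). Both had every knockout library above every control library, as did 8.52% of all tested genes.

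In the list of cristae organisation, 0 of 11 genes were called and the median was 0.02. Its smallest p-values were those of Mtx2, a component of the outer-membrane import machinery (82.7 ± 5.27 and 97.2 ± 3.62 CPM, adjusted p = 0.506), and Immt, the core MICOS subunit (203.4 ± 15.9 and 228.1 ± 17.0 CPM, adjusted p = 0.579). The 19 mitophagy genes had a median of -0.02. Tax1bp1, an autophagy receptor, had a mean of 577.4 ± 46.8 CPM in control against 482.7 ± 27.9 CPM in knockout (log2 fold change -0.26, SE 0.08, adjusted p = 0.26), the smallest p of the 6 lists. Tbk1, a kinase that phosphorylates such receptors, was at 99.2 ± 1.40 and 114.8 ± 4.81 CPM (adjusted p = 0.507).

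The 20 genes of mitochondrial biogenesis and DNA maintenance had a median of -0.06. Tfb2m, a mitochondrial transcription factor, had a mean of 32.1 ± 4.16 CPM in control against 22.4 ± 3.47 CPM in knockout (log2 fold change -0.52, adjusted p = 0.395). Gabpa, an ETS factor of nuclear genes for mitochondrial proteins, was at 66.6 ± 10.2 and 83.4 ± 2.52 CPM (0.33, adjusted p = 0.439). Ppargc1a, a coactivator of mitochondrial biogenesis named after its value was seen, was at 0, 7.62 and 6.97 CPM in control and 5.49, 2.38 and 3.68 CPM in knockout. Control replicate 1 held 0 reads against 281 and 304 in the other controls, so its fitted log2 fold change depends on the offset and is not given (adjusted p = 0.773).

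In the list of outer-membrane, import and matrix proteins, 14 of 18 genes were positive with a median of 0.09. Of all 13018 tested genes, 6580 were positive. Mitochondrial mass was not measured. Atp5b, a subunit of ATP synthase, had a mean of 1854 ± 112 CPM in control against 2022 ± 44.5 CPM in knockout (log2 fold change 0.13, adjusted p = 0.396), and Slc25a5, an ADP/ATP carrier, at 689 ± 44.3 and 767.9 ± 31.2 CPM (0.16, adjusted p = 0.419).

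The last list held genes of mitochondrial calcium uptake, contact sites, calcineurin and NFAT, the signalling arm tied to Mfn2. Of its 21 tested genes 0 were called, 4 had an unadjusted p below 0.05 (10.3% of all tested genes did) and the median was 0.03. Mcub, a relative of the calcium uniporter pore named after its value was seen, is 1 of the 4 and had 0 reads in control replicates 2 and 3, against 51 to 163 in the other 4 libraries. Nfatc3, an NFAT factor, was at 95.1, 104.8 and 87.5 CPM in control and 149.6, 111.2 and 116.7 CPM in knockout (log2 fold change 0.39, SE 0.14, adjusted p = 0.357). All 3 knockout libraries were above the controls, as for 8.52% of all tested genes. Nfatc1, another NFAT factor, named after its value was seen, was lower in all 3 knockout libraries (122.9 ± 11.5 and 100.2 ± 12.5 CPM, adjusted p = 0.453). That order was held by 8.01% of all tested genes.

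**Figure D5:**
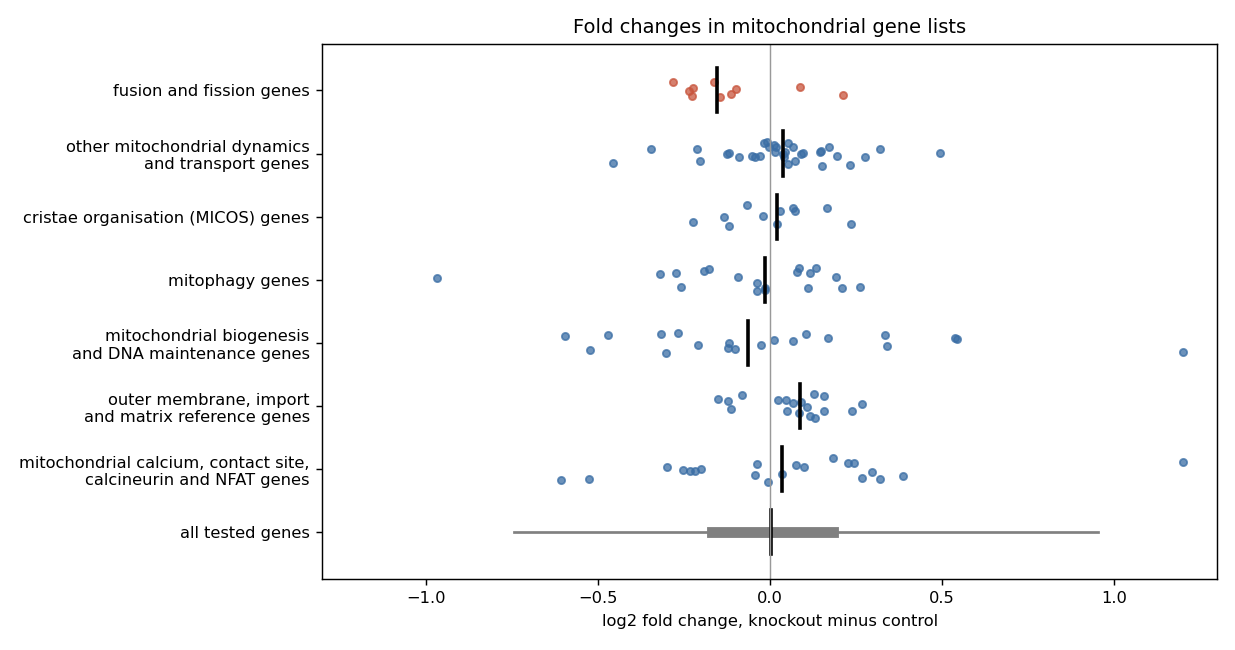
Log2 fold changes, knockout minus control (horizontal axis), of the 10 fusion and fission genes (red) and of the genes of 6 other mitochondrial lists (blue), with black bars for medians. The grey bars of all 13018 tested genes span the 25 to 75 (thick) and 5 to 95 (thin) percentiles. The 2 points beyond the axis limit of 1.2, Ppargc1a and Mcub, are drawn at that limit and have control libraries with 0 reads. The red median is at -0.15, the blue medians lie between -0.06 and 0.09, and no gene drawn as a point passed the test.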

How the data were processed

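RNA-seq was measured in 3 control and 3 knockout libraries. The deposited table gives log2 values per NCBI gene ID, made by the authors with FastQC, HISAT2, featureCounts, limma and build mm10, per the submitters' processing notes. Their versions, the strand setting and the handling of multimapping are not stated there. Undoing log2 CPM with an offset of 0.5 reads gave whole reads for 100.0% of values (tolerance 0.01).

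Symbols and coordinates are from the RefSeq table of GRCm38.p6 (25275 IDs matched, 1904 not). Genes at 1 CPM or more, offset included, in at least 3 libraries entered the fit (limma 3.58.1 under R 4.3.3: eBayes with trend, no block), and p was adjusted over all of them by Benjamini-Hochberg. On simulated data, 11.6%, 48.6% and 74.6% of genes changed 1.5-, 2- and 4-fold were recovered (200 changed of 13018), and 7 unchanged genes were called. Transcripts were compared with BLAST+ 2.17.0 (at least 95% identity over 200 bases) and figures drawn with matplotlib 3.10.9.

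Alternatives were voom on the recovered reads, CPM offsets of 0.1, 1 and 5, a filter of 5 CPM or no filter, quantile normalization or centring on the median, eBayes made robust or without its trend, the replicate number as a block, and each library left out in turn.

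The members and lists were chosen with earlier results of these data known. Named genes were the 10 members, Prdm16, the 3 nearest profiles to Mfn2 and, per pathway list, called genes or else the 2 with the smallest p. A gene that this rule names is not reported here.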

Additional observations from a re-analysis of the deposited data

How the results depend on the processing

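Across 17 alternative settings, 0 of the 10 genes were called, and the direction held for 8 of them. Leaving out a library moved Mfn2 between -0.30 and -0.01, Mief1 between -0.21 and 0.053 (positive without knockout replicate 2), and Oma1 between -0.083 (without knockout replicate 3) and 0.30, with -0.05 without control replicate 1. Over all tested genes, 53 higher and 38 lower calls became 19 and 14 without the low-value filter, 105 and 59 with log2(CPM + 1) and 104 and 64 with log2(CPM + 5). The lower calls numbered 15 without the trend. With replicate number as a block 44 genes were higher and 23 lower, and 0 of the 10 genes were called. On leaving out a library the higher calls ran from 20 to 66 and the lower from 22 to 31. The replicate numbers did not pair the libraries: correlations of same-numbered deviations were -0.01, -0.02 and 0.02, and replicate 3 alone correlated best with its own number. The cause of these shifts in count was not tested. Each group has 3 libraries from 1 pool, whose number limits the precision, and transcript isoforms of the 10 genes cannot be told apart in gene totals.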
